A study of Mus musculus with 24 samples.

Results

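Fatty acid oxidation, the pathway by which mitochondria and peroxisomes break fatty acids down, was followed through 36 genes chosen by name, of which 34 were found by symbol on the array and all 34 passed the filter on dim probes. They were 34 of 28235 genes tested. Of the 34, 19 encode mitochondrial proteins, 12 peroxisomal proteins and 3 (Ech1, Crat, Acad11) proteins placed in both organelles. The missing symbols, Eci1 and Eci2, stand on the array under the older names Dci and Peci and are described apart from the counts. RNA of the left ventricle of 24 male mice was measured on 1-colour microarrays, 1 array a mouse and 6 mice in each of 4 groups. mG4H STZ mice carried a transgene for GLUT4, a glucose transporter, that could be induced in cardiomyocytes alone, and were made diabetic with streptozotocin (STZ), which destroys the insulin-producing cells, in doses of 55 mg per kg given on 5 days. mG4H VEH mice carried the same transgene and received the citrate buffer alone. CON STZ mice were controls of the transgenic line given STZ, and CON VEH mice were controls given the buffer. The transgene was switched on 2 weeks after STZ, for 2 weeks. The promoter, the ages and what CON mice carried are not given in the sources used here, nor is which mice were siblings, though each group had a sibling pair with another. Blood glucose at 4 weeks was 500 to 601 in mG4H STZ mice, 131 to 152 in mG4H VEH mice, 600 to 601 in CON STZ mice and 117 to 164 in CON VEH mice, in a unit that the labels do not state.

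The heart draws most of its energy from fatty acids. A fatty acid is first joined to coenzyme A, then carried across the mitochondrial membranes as a carnitine ester, and then shortened in cycles of oxidation, hydration, a second oxidation and thiolysis, with the electrons passed on through the electron-transferring flavoprotein. Peroxisomes run a similar cycle on very long and branched chains, and pass the shortened products on. Many of these genes are textbook targets of the nuclear receptor PPAR alpha, which is switched on by fatty acids.

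Values are log2 processed signals relative to each array's 75th percentile, so that 0 is that percentile, and levels are compared within a gene only. That percentile ranged between 370 and 583 over the 24 arrays, with 58.5% to 76.3% of spots above background. All members were well above background on every array that measured them. The Abcd2 probe was by far the dimmest of the members' probes, with group medians of -4.28 to -3.65. Group medians of every other member were -0.35 or higher. The cardiomyocyte markers were present in all groups, with a summed linear level of 3109 to 3938 times the percentile in mG4H STZ, 3052 to 4068 in mG4H VEH, 2910 to 4073 in CON STZ and 3079 to 4181 in CON VEH hearts. In bulk tissue, fewer cells of a type and less RNA per cell cannot be told apart. Slc2a4, the gene for GLUT4, did not check the transgene. Its lowest, median and highest levels were 5.66, 6.37 and 6.94 in mG4H STZ, 6.33, 6.57 and 6.61 in mG4H VEH, 5.60, 6.25 and 6.42 in CON STZ, and 6.51, 6.76 and 6.93 in CON VEH hearts. The mG4H and CON hearts overlapped under both treatments, and the log2 difference of mG4H from CON was -0.20 ± 0.16 (SE) in VEH hearts and 0.20 ± 0.16 in STZ hearts, with adjusted p of 1.0 each by limma. The labels do not say whether the transgene's transcript holds the sequence the probe reads, so every genotype statement below is about hearts labelled mG4H.

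The arrays lay on 4 slides, of which the first 3 mixed all groups and slide 4 carried replicate 3 of mG4H VEH and of CON VEH alone. Replicate 2 of mG4H STZ stood low, with the lowest value of its group for 22 of the 34 members. It was lowest for 8 of the 9 members that rose in CON STZ hearts.

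The sequences below show what was read and where 2 of the genes begin. The array reads each gene through a 60-base probe, and those of Ech1 and Pex11a are printed because these members stand for the organelles' shared and peroxisomal classes among the genes that rose. On mm9, the build in the file headers, the Ech1 probe lies between chr7:29616256-29616416 on the plus strand, a span longer than the probe, and the Pex11a probe at chr7:86882223-86882282 on the minus strand. No exon was assigned to a probe.
Ech1: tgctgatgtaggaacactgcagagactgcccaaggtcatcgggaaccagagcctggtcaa
Pex11a: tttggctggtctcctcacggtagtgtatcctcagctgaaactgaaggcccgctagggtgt

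Promoter windows of 300 bases, 250 before and 50 after the start, were taken from RefSeq (GRCm38.p6) for 30 of the 36 genes. Of these, 0 held the direct repeat with 1 base between that PPAR binds, and 0 held TCAAGGTCA, the element of the estrogen-related receptors, on either strand. Over all genes with a window, 0.451% held the direct repeat and 0.47% the receptor element. The shorter core AGGTCA, searched after the data were seen, forms part of the receptor element and can form part of the repeat. It was in 5 of the 30 (Cpt1a, Acadm, Acadvl, Echs1 and Scp2), against 18.1% of all genes. A match is a description of letters, and its absence says nothing of sites outside the window. Of the 9 genes that rose in CON STZ hearts, described next, 5 had a window, and Cpt1a is shown because it is the one of these that holds the core, here on the minus strand and in capitals (chr19:3323051-3323350, plus strand).
Cpt1a: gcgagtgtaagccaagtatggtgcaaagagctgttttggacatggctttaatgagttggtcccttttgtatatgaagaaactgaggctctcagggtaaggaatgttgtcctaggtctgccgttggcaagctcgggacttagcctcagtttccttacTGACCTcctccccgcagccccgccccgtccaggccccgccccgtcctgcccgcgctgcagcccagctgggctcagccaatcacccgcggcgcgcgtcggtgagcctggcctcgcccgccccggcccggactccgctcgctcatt

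Hadha and Hadhb, the alpha and beta subunits of the mitochondrial trifunctional protein, begin head to head, with 273 bases between their starts. Their windows share 228 bases, in capitals in the Hadha window (chr5:30154931-30155230, minus strand).
Hadha: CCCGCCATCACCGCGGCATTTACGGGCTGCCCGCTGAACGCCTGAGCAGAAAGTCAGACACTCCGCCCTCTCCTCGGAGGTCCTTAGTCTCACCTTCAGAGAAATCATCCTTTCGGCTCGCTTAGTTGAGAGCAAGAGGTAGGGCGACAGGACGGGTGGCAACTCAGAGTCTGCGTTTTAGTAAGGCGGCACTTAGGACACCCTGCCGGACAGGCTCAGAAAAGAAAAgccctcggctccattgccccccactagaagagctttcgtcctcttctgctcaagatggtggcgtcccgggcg

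Without the transgene, in CON hearts, 9 of the 34 genes rose and 0 fell with STZ. The genes that rose were Cpt1a, Cpt1b, Acadl, Hadha, Acaa2 and Decr1 of the mitochondrial class, Ech1 of both organelles, and Hsd17b4 and Pex11a of the peroxisomal class. Over all 28235 genes 3.96% passed, 1.66% as higher and 2.3% as lower, at an adjusted p under 0.05 by limma. The log2 changes of the 9 ran between 0.28 for Hsd17b4 and 0.70 for Decr1, so even the largest was a moderate change of 1.63-fold. Of the 34 members, 24 had a positive estimate, against 55.2% of all genes. The levels of CON STZ and CON VEH hearts did not overlap for 6 members, all higher (Cpt1a, Acadl, Decr1, Ech1, Hsd17b4 and Pex11a), and 1.91% of all genes were set apart this way.

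These calls depend on the scaling of the arrays. With each array scaled to its median instead of its 75th percentile, 0 of the 34 passed, although the log2 changes of the 9 stayed between 0.24 and 0.66, with adjusted p between 0.276 and 1.0. Only 75 of all genes passed under that scaling, against 1117 with the percentile. Within each of slides 1, 2 and 3, all 9 were higher in CON STZ than in CON VEH hearts, the smallest difference being 0.079 for Hsd17b4. With slide as a block the same 9 passed, against 2.02% of all genes as higher. The 9 were selected on these same arrays, so neither result is an independent check.

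**Figure D1:**
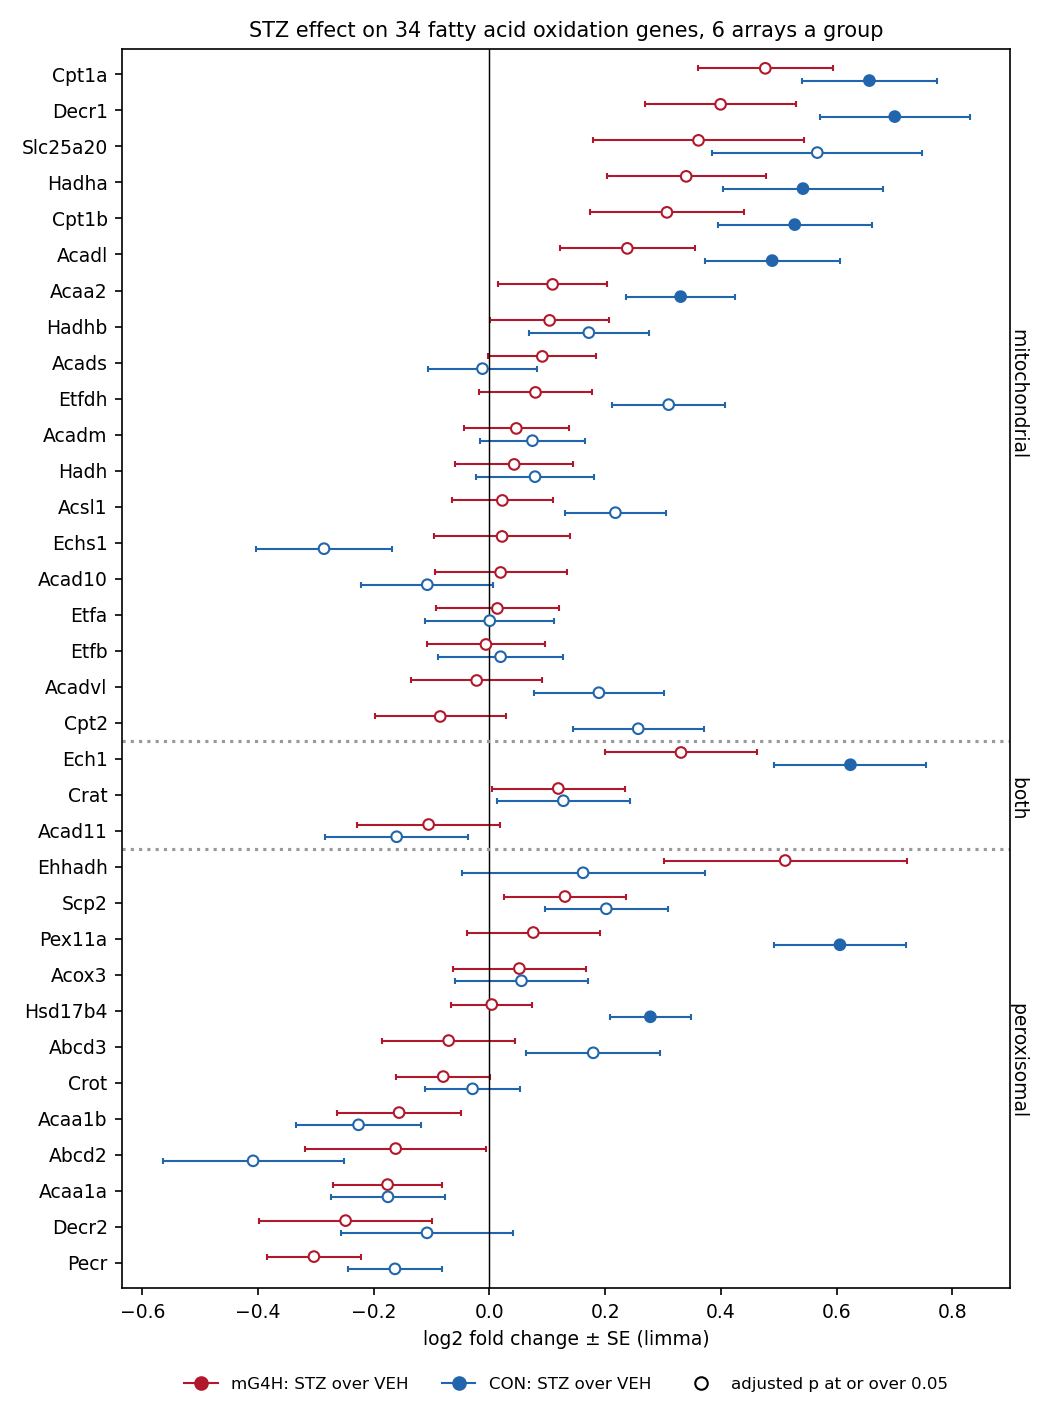
Log2 fold change of STZ over VEH with its SE for the 34 genes, grouped by class, in mG4H hearts (red) and CON hearts (blue), from 6 arrays a group. Filled symbols passed an adjusted p of 0.05. The 9 filled symbols are all blue and all to the right of 0.

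Among the 6 genes of activation and entry, both isoforms of carnitine palmitoyltransferase 1, the gate at the outer mitochondrial membrane, rose. Cpt1a, the isoform best known from liver, had its lowest, median and highest levels at 1.65, 2.00 and 2.17 in CON STZ hearts, against 1.11, 1.28 and 1.52 in CON VEH hearts. All 6 CON STZ hearts lay above all CON VEH hearts, and the log2 change was 0.66 ± 0.12 (adjusted p = 0.00232). A second Cpt1a probe gave 0.63 (adjusted p = 0.0132 in a fit over probes). Cpt1b, the muscle isoform, stood at 5.83, 6.04 and 6.24 in CON STZ hearts, against 5.38, 5.45 and 5.87 in CON VEH hearts. Its groups overlapped by 1 CON VEH heart, and the log2 change was 0.53 ± 0.13 (adjusted p = 0.0267). The second Cpt1b probe gave 0.49 without passing (adjusted p = 0.0891). The other 4 had positive estimates that did not pass. Slc25a20, the carrier that swaps acylcarnitine for carnitine across the inner membrane, had 0.57 ± 0.18 (adjusted p = 0.0892), with CON VEH hearts spread between 2.26 and 3.48 and CON STZ hearts between 3.31 and 3.98. Cpt2, which returns the acyl group to coenzyme A, had 0.26 ± 0.11. Acsl1, the main acyl-CoA synthetase of heart muscle, had 0.22 ± 0.09. Crat, the carnitine acetyltransferase, had 0.13 ± 0.11.

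Of the 6 acyl-CoA dehydrogenases, which take the first oxidation step on different chain lengths, Acadl alone passed. This long-chain enzyme stood at 6.29, 6.51 and 6.78 in CON STZ hearts, against 5.87, 6.03 and 6.13 in CON VEH hearts. All CON STZ values lay above all CON VEH values, and the log2 change was 0.49 ± 0.12 (adjusted p = 0.019). Acadvl, the very long-chain enzyme, had 0.19 ± 0.11. Acadm and Acads, the medium-chain and short-chain enzymes, had 0.07 ± 0.09 and -0.01 ± 0.09, with 95% intervals of -0.11 to 0.26 and -0.21 to 0.18. Acad10 and Acad11 had -0.11 ± 0.11 and -0.16 ± 0.12. Whether these changes differ from that of Acadl was not tested.

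Of the 5 genes of hydration, second oxidation and thiolysis, Hadha and Acaa2 rose. Hadha stood at 3.76, 4.03 and 4.43 in CON STZ hearts, against 3.36, 3.48 and 3.84 in CON VEH hearts. Replicate 4 of CON VEH, at 3.84, was the one CON VEH heart within the CON STZ range, and the log2 change was 0.54 ± 0.14 (adjusted p = 0.0273). Hadhb, which starts 273 bases away on the other strand, had 0.17 ± 0.10 (adjusted p = 0.537, 95% interval -0.04 to 0.39), with 7.80 to 8.34 in CON STZ and 7.76 to 8.06 in CON VEH hearts. The difference between the 2 subunits' changes was not tested. Acaa2, the mitochondrial thiolase, stood at 7.93, 8.22 and 8.46 in CON STZ hearts, against 7.69, 7.85 and 8.04 in CON VEH hearts. The groups overlapped, the log2 change was 0.33 ± 0.09, and the adjusted p of 0.0499 lay just inside the threshold. Hadh, the short-chain hydroxyacyl-CoA dehydrogenase, had 0.08 ± 0.10. Echs1, the short-chain enoyl-CoA hydratase, was the one gene of this step with a negative estimate, -0.29 ± 0.12, which did not pass (adjusted p = 0.233).

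The 3 genes that hand on the electrons did not pass. Etfdh, the oxidoreductase that feeds them to ubiquinone, came closest with 0.31 ± 0.10 (adjusted p = 0.0825), at 7.22 to 7.79 in CON STZ and 7.04 to 7.35 in CON VEH hearts. Etfa and Etfb, the 2 subunits of the flavoprotein, had 0.00057 ± 0.11 and 0.02 ± 0.11. For Etfa 1 CON STZ array, and for Etfb 1 CON VEH array, had no usable spot and was left out of the fit of that gene.

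Decr1 and Ech1, the 2 members grouped here as preparing unsaturated fatty acids for the cycle, both rose. Decr2, a peroxisomal reductase of such chains, was counted with the auxiliary genes below and did not pass (-0.11 ± 0.15). Decr1, the dienoyl-CoA reductase of mitochondria, stood at 7.95, 8.24 and 8.63 in CON STZ hearts, against 7.32, 7.52 and 7.73 in CON VEH hearts. The groups did not overlap, and its log2 change of 0.70 ± 0.13 (adjusted p = 0.00331) was the largest estimate of the 34. A second Decr1 probe gave 0.79 (adjusted p = 0.00167). Ech1, a dienoyl-CoA isomerase of mitochondria and peroxisomes, stood at 6.58, 6.97 and 7.29 in CON STZ hearts, against 6.155, 6.27 and 6.57 in CON VEH hearts. The lowest CON STZ heart lay just above the highest CON VEH heart, and the log2 change was 0.62 ± 0.13 (adjusted p = 0.00842). The 2 enoyl-CoA isomerases read under older symbols lay on the same side. Peci (Eci2) stood at 6.14, 6.57 and 6.97 in CON STZ hearts, against 5.86, 6.18 and 6.23 in CON VEH hearts, with overlap and a log2 change of 0.48 ± 0.13 (adjusted p = 0.0378). Dci (Eci1) had 0.33 ± 0.11 and did not pass (adjusted p = 0.0947).

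Of the 6 genes of peroxisomal chain shortening, Hsd17b4 rose. It encodes the D-bifunctional protein, which hydrates and oxidises the chain for very long and branched substrates. Its levels were 4.92, 5.05 and 5.24 in CON STZ hearts, against 4.65, 4.77 and 4.89 in CON VEH hearts. The groups did not overlap, though the log2 change of 0.28 ± 0.07 (adjusted p = 0.0264) was the smallest of the 9. Ehhadh, the L-bifunctional protein of the same steps, had 0.16 ± 0.21, and its 6 CON STZ hearts spread between -0.28 and 0.73. Scp2, whose longer product is a thiolase of branched chains, had 0.20 ± 0.11, and Acox3, an oxidase of branched chains, 0.06 ± 0.12. The straight-chain thiolases Acaa1a and Acaa1b had -0.18 ± 0.10 and -0.23 ± 0.11. They are closely related copies whose probes may share transcripts, so these values are uncertain. For Acaa1a 1 CON VEH array was left out.

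Pex11a, which helps peroxisomes elongate and divide, was one of 3 genes of peroxisomal import and division and the one of them that rose. Its levels were 4.43, 4.88 and 5.05 in CON STZ hearts, against 4.08, 4.23 and 4.32 in CON VEH hearts. All CON STZ hearts lay above all CON VEH hearts, and the log2 change was 0.61 ± 0.11 (adjusted p = 0.00377). The transporters that bring acyl-CoA into peroxisomes did not pass. Abcd3, the major transporter of the membrane, had 0.18 ± 0.12. Abcd2 had the lowest estimate of the 34, -0.41 ± 0.16 (adjusted p = 0.18), at -4.72 to -3.85 in CON STZ and -4.49 to -3.49 in CON VEH hearts. The 3 auxiliary genes had estimates below 0 and none passed. These were Pecr, the peroxisomal trans-enoyl-CoA reductase, with -0.16 ± 0.08, Decr2, the peroxisomal dienoyl-CoA reductase, with -0.11 ± 0.15, and Crot, the carnitine octanoyltransferase, with -0.03 ± 0.08.

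**Figure D2:**
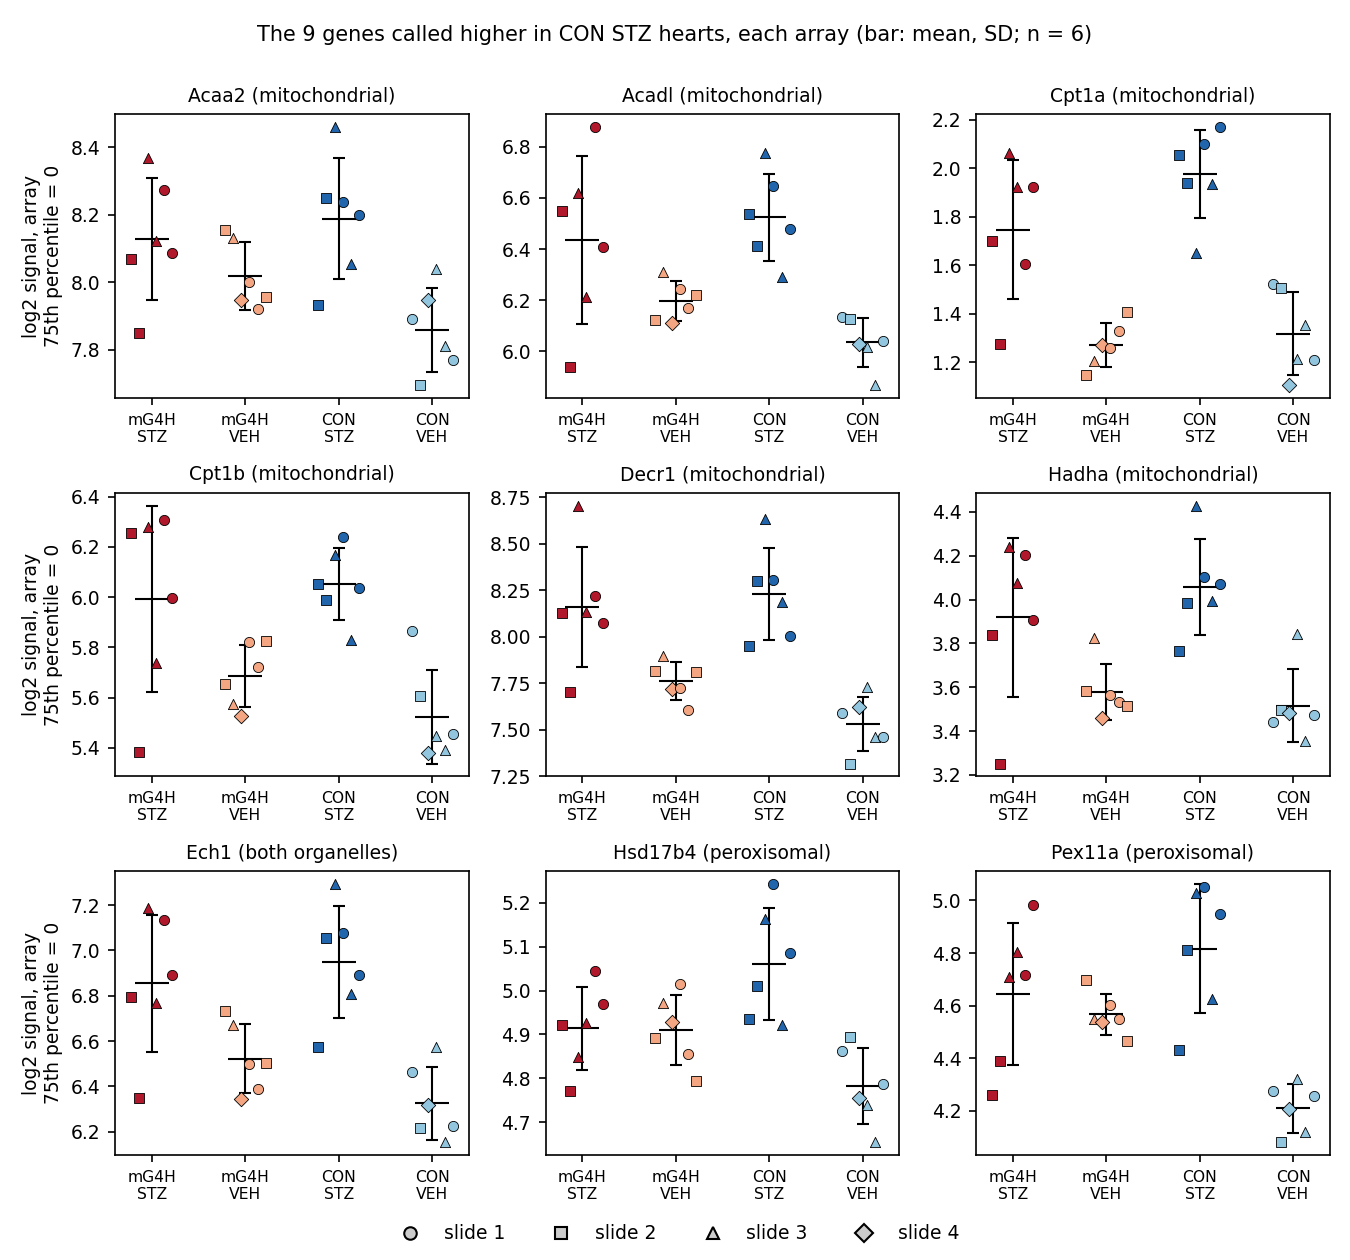
Level of the 9 genes that rose in CON STZ hearts, on each array (y axis, log2 signal with the array's 75th percentile at 0), for mG4H STZ, mG4H VEH, CON STZ and CON VEH hearts. Symbols mark the slide and bars the mean and SD of 6 arrays. CON STZ lies wholly above CON VEH in 6 of the 9 plots, and 1 mG4H STZ array is the lowest of its group in 8 of them.

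Set side by side, 6 of 19 mitochondrial, 1 of 3 shared and 2 of 12 peroxisomal genes rose in CON STZ hearts, against 1.66% of all genes. The median log2 change was 0.22 over the mitochondrial genes and 0.013 over the peroxisomal genes, against 0.027 over all genes. Of the 19 mitochondrial genes 16 had a positive estimate, and of the 12 peroxisomal genes 6, against 55.2% of all genes. The mitochondrial median was 0.26, 0.20 and 0.26 within slides 1, 2 and 3, and the peroxisomal median 0.037, -0.097 and -0.039. The peroxisomal median was -0.029 with median scaling, under which the median of all genes was -0.016, and -0.010 with normexp background correction. Relative to all genes it was -0.014 with the percentile, -0.013 with median scaling, -0.0069 with normexp and 0.0045 with quantile normalization. It was -0.0044 without replicate 4 of CON STZ and 0.038 without replicate 1 of CON VEH. Genes are not replicates, so the difference between the classes was not tested. Within the peroxisomal class the estimates ran from -0.41 for Abcd2 to 0.61 for Pex11a, and within the mitochondrial class from -0.29 for Echs1 to 0.70 for Decr1.

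**Figure D3:**
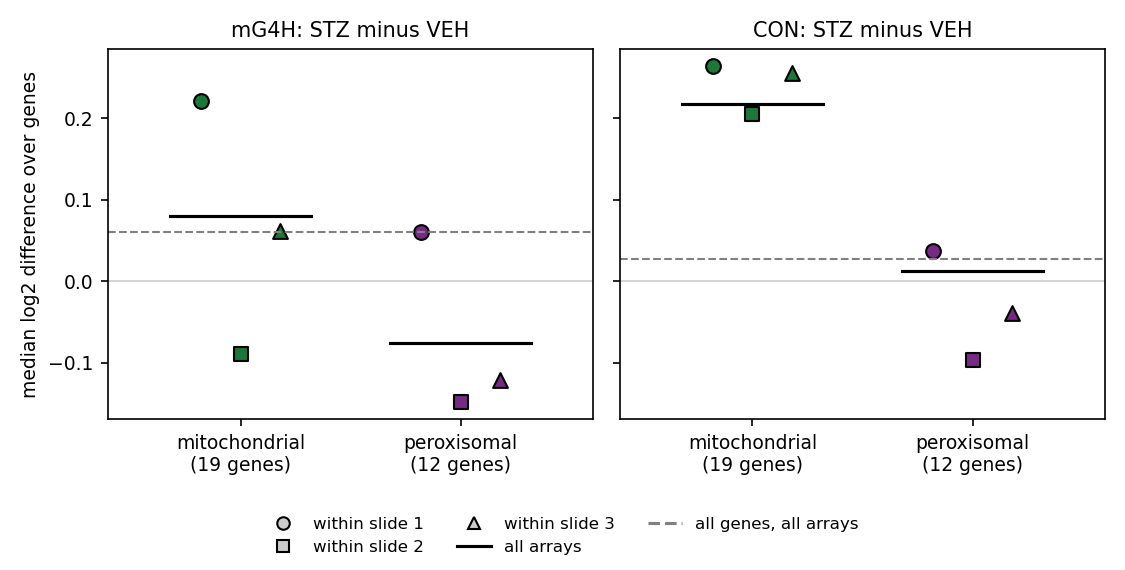
Median log2 difference of STZ minus VEH over the 19 mitochondrial and 12 peroxisomal genes, in mG4H hearts (left panel) and CON hearts (right panel). Symbols are values within slides 1 to 3, black bars the fit of all arrays and dashed lines the median of all genes. In CON hearts the mitochondrial median lies between 0.20 and 0.26 on every slide.

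Single arrays moved the count of 9. Leaving out replicate 3 of CON STZ, or replicate 5 of CON VEH, left 5 members, in both cases Acadl, Cpt1a, Decr1, Ech1 and Pex11a. The same 5 remained without slide 4. Leaving out replicate 3 of CON VEH left these 5 and put Abcd2 past the threshold as lower. These 5 passed in all 24 fits that left out 1 array, Hsd17b4 in 19, Hadha in 18, Cpt1b in 17 and Acaa2 in 5. Fits that left out an mG4H array could not move the CON log2 changes. Hsd17b4, Hadha and Cpt1b lost the threshold only in fits that left out a CON array, so the counts out of 24 overstate their stability.

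In mG4H hearts, STZ put 0 of the 34 genes past the threshold, where 0.266% of all genes passed. By limma, 7 members had an unadjusted p under 0.05, against 14% of all genes. The 3 members with the smallest p were Cpt1a, Pecr and Decr1. Cpt1a stood at 1.27, 1.81 and 2.06 in mG4H STZ hearts, against 1.15, 1.26 and 1.41 in mG4H VEH hearts. All but 1 of the mG4H STZ hearts lay above every mG4H VEH heart, and the log2 change was 0.48 ± 0.12 (adjusted p = 0.0792, 95% interval 0.24 to 0.72). Pecr stood at 2.32, 2.52 and 2.73 in mG4H STZ hearts, against 2.66, 2.83 and 2.94 in mG4H VEH hearts, with overlap and -0.30 ± 0.08 (adjusted p = 0.102). Decr1 stood at 7.70, 8.13 and 8.70 in mG4H STZ hearts, against 7.60, 7.77 and 7.89 in mG4H VEH hearts, and again 1 mG4H STZ heart lay within the mG4H VEH range. Its log2 change was 0.40 ± 0.13 (adjusted p = 0.164).

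The count in mG4H hearts rested on 1 array. Without replicate 2 of mG4H STZ, 5 members passed. Cpt1a then had 0.57 ± 0.10 (adjusted p = 0.0104), Hadha 0.47 ± 0.11 (adjusted p = 0.0336), Decr1 0.49 ± 0.12 (adjusted p = 0.0414) and Cpt1b 0.43 ± 0.11 (adjusted p = 0.049), while Pecr passed as lower with -0.32 ± 0.09 (adjusted p = 0.0495). In that fit 627 of all genes passed, against 75 with the array. That array's 75th percentile of 463 and its 68.8% of spots above background lay within the range of the other arrays of its group. Decr1 also passed under quantile normalization, with 0.41 ± 0.09 (adjusted p = 0.0491), and Cpt1a without replicate 3 of CON STZ (adjusted p = 0.0498).

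The 9 genes that rose in CON hearts all had positive estimates in mG4H hearts, and all 9 were smaller there, between 0.0040 for Hsd17b4 and 0.48 for Cpt1a. The others of the 9 had 0.34 ± 0.14 for Hadha, 0.33 ± 0.13 for Ech1, 0.31 ± 0.13 for Cpt1b, 0.24 ± 0.12 for Acadl, 0.11 ± 0.09 for Acaa2 and 0.08 ± 0.11 for Pex11a. These 9 were selected by their change in CON hearts. Over the rest, Ehhadh had 0.51 ± 0.21 (adjusted p = 0.263), the largest estimate in mG4H hearts, with mG4H STZ hearts spread between -0.35 and 1.49 and mG4H VEH hearts between -0.12 and -0.0042. Slc25a20 had 0.36 ± 0.18 (adjusted p = 0.382). Apart from these and Pecr, the estimates lay between -0.25 for Decr2 and 0.13 for Scp2. Cpt2 is uncertain, since its 2 probes gave -0.09 and 0.18.

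The mitochondrial median in mG4H hearts was 0.080 and the peroxisomal median -0.075, against 0.061 over all genes. With median scaling the median of all genes moved to -0.048, the mitochondrial median to -0.029 and the peroxisomal median to -0.18. Relative to all genes, a value that a shift of whole arrays leaves nearly alone, they were 0.019 and -0.14 under both scalings. With normexp background correction these relative values were 0.057 and -0.058, and with quantile normalization 0.072 and -0.099. Leaving out 1 array moved the mitochondrial median between 0.017, without replicate 5 of mG4H STZ, and 0.13, without replicate 2, and the peroxisomal median between -0.11, without replicate 5, and -0.041, without replicate 3 of the same group. Within slides 1, 2 and 3 the mitochondrial median was 0.22, -0.089 and 0.062, so its sign differed between slides, and the peroxisomal median 0.061, -0.15 and -0.12. Replicate 2 of mG4H STZ was on slide 2.

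Whether STZ acted differently in the genotypes was tested as the difference between the STZ effects, mG4H minus CON. By limma 0 of the 34 members passed, as did 0% of all genes, while 3 members had an unadjusted p under 0.05, against 1.77% of all genes. Those 3 were Pex11a with -0.53 ± 0.16 (95% interval -0.87 to -0.19), Hsd17b4 with -0.27 ± 0.10 (-0.48 to -0.07) and Cpt2 with -0.34 ± 0.16 (-0.68 to -0.0094), each with an adjusted p of 1.0. The median of this difference was -0.20 over the mitochondrial and -0.061 over the peroxisomal genes, against 0.024 over all genes. Without replicate 2 of mG4H STZ these were -0.085 over the mitochondrial and -0.025 over the peroxisomal genes, against 0.013 over all genes. Of the 34 differences 26 were below 0, while 55% of all genes had a positive difference. The 34 were read on the same arrays, so they are not independent values. The intervals of Cpt1a (-0.52 to 0.16) and Decr1 (-0.68 to 0.08) held both equal and smaller changes in mG4H hearts. The Cpt2 difference is uncertain, since its probes differed in sign for STZ in mG4H hearts and only the brightest was used.

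Between genotypes under the buffer, 0 of the 34 passed, where 0.0815% of all genes did, and 3 members had an unadjusted p under 0.05 against 2.87% of all genes. Pex11a came closest. It stood at 4.47, 4.55 and 4.70 in mG4H VEH hearts, against 4.08, 4.23 and 4.32 in CON VEH hearts. The 2 groups did not overlap, and the log2 difference was 0.36 ± 0.11 (adjusted p = 0.702, 95% interval 0.12 to 0.60). Fitted on these 2 groups alone it passed, with 0.36 ± 0.06 (adjusted p = 0.0297). Its CON VEH level was thus the lowest of the 4 groups, and this group serves in its STZ effect in CON hearts, in its genotype difference and in the difference between the STZ effects. Echs1 stood at 6.09, 6.26 and 6.30 in mG4H VEH hearts, against 6.39, 6.58 and 6.73 in CON VEH hearts, without overlap and with -0.32 ± 0.12 (adjusted p = 1.0). Abcd3 stood at 5.18, 5.32 and 5.41 in mG4H VEH hearts, against 4.74, 5.18 and 5.24 in CON VEH hearts, with overlap and 0.25 ± 0.12 (adjusted p = 1.0). In all, 2 members lay wholly higher in mG4H VEH (Pex11a and Acsl1, 0.16 ± 0.09) and 2 wholly lower (Echs1 and Ehhadh, -0.22 ± 0.21), against 0.4% and 0.62% of all genes. The mitochondrial median was 0.064 and the peroxisomal 0.091, against -0.0084 over all genes. The mitochondrial median was 0.12 with slide as a block, 0.038 without replicate 5 of CON VEH and 0.13 without replicate 4 of CON VEH.

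**Figure D4:**
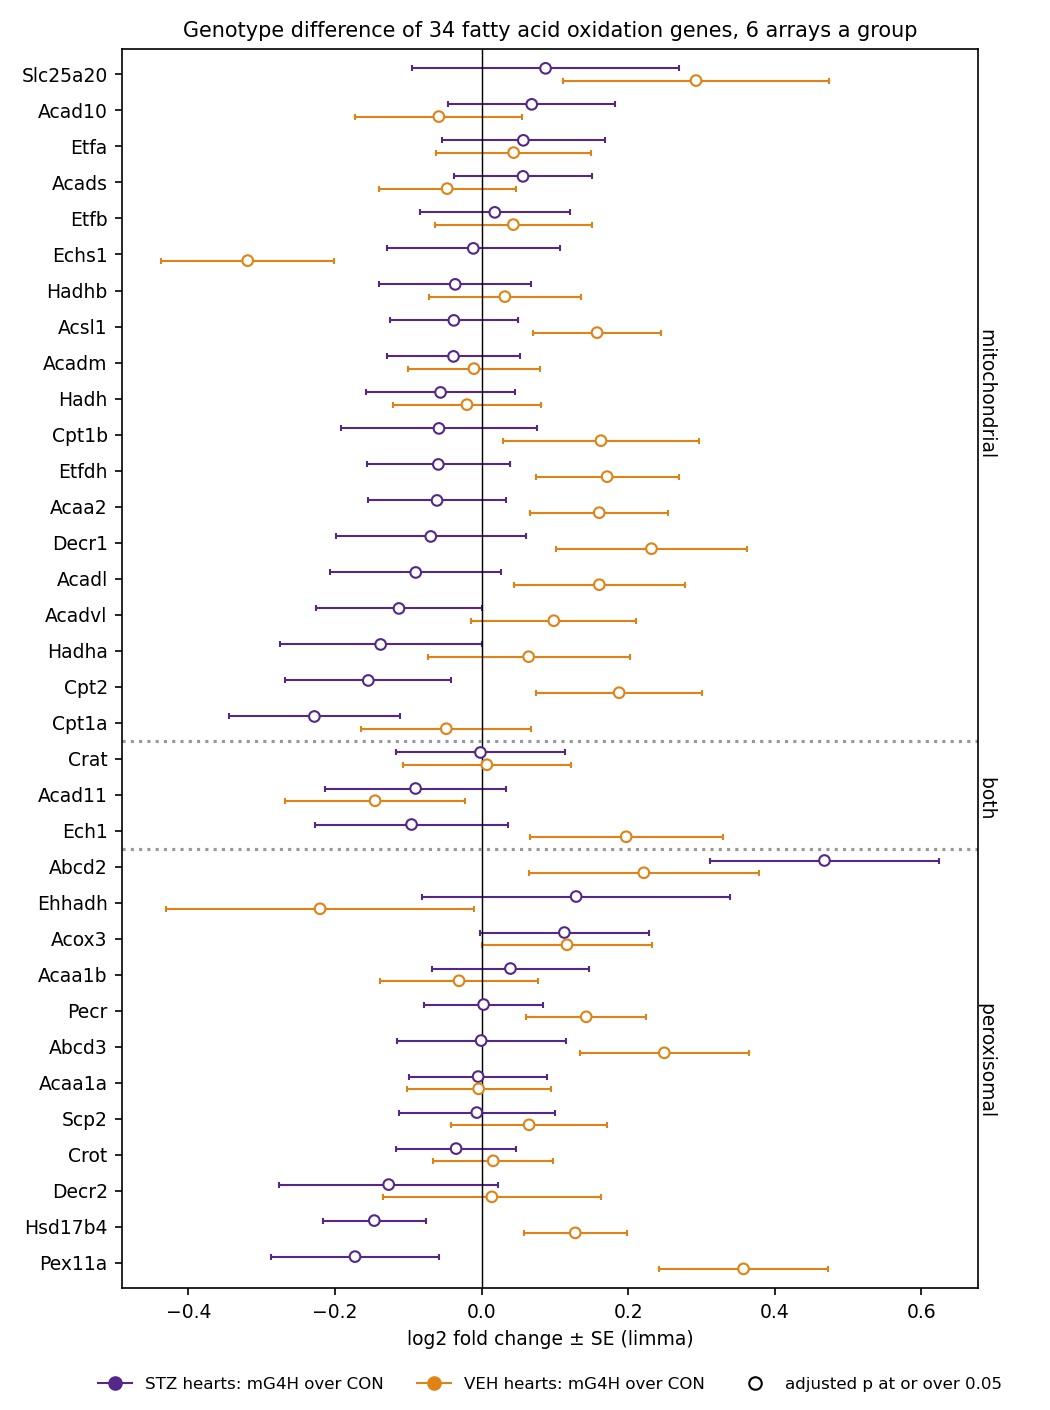
Log2 fold change of mG4H over CON with its SE for the 34 genes, grouped by class, in STZ hearts (purple) and VEH hearts (orange), from 6 arrays a group. All symbols are open, since 0 members passed an adjusted p of 0.05. Pex11a lies at 0.36 in VEH hearts and -0.17 in STZ hearts.

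Between genotypes under STZ, 0 of the 34 passed, where 0.0106% of all genes did, and 2 members had an unadjusted p under 0.05 against 3.55% of all genes. The 3 smallest p belonged to Abcd2, Hsd17b4 and Cpt1a, of which Abcd2 was read by the dimmest of the members' probes. Abcd2 stood at -4.18, -3.74 and -3.48 in mG4H STZ hearts, against -4.72, -4.28 and -3.85 in CON STZ hearts, with overlap and 0.47 ± 0.16 (adjusted p = 0.772). Hsd17b4 stood at 4.77, 4.92 and 5.04 in mG4H STZ hearts, against 4.92, 5.05 and 5.24 in CON STZ hearts, with overlap and -0.15 ± 0.07 (adjusted p = 1.0). Cpt1a stood at 1.27, 1.81 and 2.06 in mG4H STZ hearts, against 1.65, 2.00 and 2.17 in CON STZ hearts, with overlap and -0.23 ± 0.12 (adjusted p = 1.0). The mitochondrial median was -0.056 and the peroxisomal -0.0027, against 0.015 over all genes, and the peroxisomal median was 0.023 with normexp background correction. Both signs also turned on single arrays: the mitochondrial median was 0.022 without replicate 2 of mG4H STZ, and the peroxisomal median 0.043 without replicate 4 of CON STZ.

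Genes around the pathway were counted in the same fit. Of 13 partners in acyl-CoA and carnitine handling, 0 rose and 2 fell in CON STZ hearts, against 1.66% and 2.3% of all genes. Acsl6, an acyl-CoA synthetase best known from brain, stood at -1.68, -1.30 and -0.95 in CON STZ hearts, against -0.64, -0.34 and -0.15 in CON VEH hearts. The groups did not overlap and the log2 change was -0.97 ± 0.15 (adjusted p = 0.000667). Nudt19, a coenzyme A hydrolase of peroxisomes, had -0.25 ± 0.07 (adjusted p = 0.0444). The list's median was -0.23, against 0.027 over all genes.

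Of 13 further peroxisomal enzymes and carriers, 2 rose and 1 fell in CON STZ hearts, against 1.66% and 2.3% of all genes. Ephx2, the soluble epoxide hydrolase, stood at 5.99, 6.31 and 6.53 in CON STZ hearts, against 5.46, 5.71 and 5.86 in CON VEH hearts, without overlap and with 0.62 ± 0.11 (adjusted p = 0.00264). Cat, the catalase that removes the hydrogen peroxide made by peroxisomal oxidases, stood at 3.52, 3.60 and 4.32 in CON STZ hearts, against 2.87, 3.05 and 3.12 in CON VEH hearts, without overlap and with 0.69 ± 0.18 (adjusted p = 0.0282). Amacr, the racemase of branched-chain acyl-CoA, fell by 0.35 ± 0.09 on the log2 scale (adjusted p = 0.0355). The list's median was 0.12, against 0.027 over all genes.

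The peroxins, which build the organelle and import its enzymes, were counted apart from Pex11a. Of 15 listed 13 were measured and 0 passed in CON STZ hearts, with a median of -0.017. Over all genes the median was 0.027, and 1.66% passed as higher and 2.3% as lower. Of 16 regulators 0 rose and 1 fell, Esrrg, an estrogen-related receptor, with -0.28 ± 0.08 (adjusted p = 0.042, and 0.0555 with slide as a block). The receptor gene Ppara had -0.20 ± 0.17 and its coactivator Ppargc1a 0.09 ± 0.17, and neither passed. In the other 4 comparisons 0 genes of these 4 lists passed.

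Markers of other cell types were set beside these counts, with 3.96% of all genes past the threshold for STZ in CON hearts. Cidea, a lipid droplet protein used as a brown fat marker, rose in CON STZ hearts, at 5.96 to 6.76 in CON STZ and 5.13 to 5.47 in CON VEH hearts, with 1.04 ± 0.12 (adjusted p = 7.17e-05). Of 4 brown adipocyte markers 2 were measured, and Cidea alone of these passed. The defining marker Ucp1 was above background on 2 of 24 arrays and Elovl3 on 0. The summed level of that list was 62.5 to 108.6 in CON STZ and 35.6 to 44.85 in CON VEH hearts, and the sums did not overlap. It was 58.4 to 97.0 in mG4H STZ and 47.5 to 56.0 in mG4H VEH hearts, which did not overlap either, and mG4H VEH lay wholly above CON VEH. In CON hearts Cidea alone made up nearly all of this linear sum, so the sum restates Cidea. Over the 2 measured markers the mean log2 change with STZ was 0.80 in CON and 0.098 in mG4H hearts. Of 6 white adipocyte markers 0 passed, with summed levels of 1.72 to 4.40 in CON STZ and 0.71 to 2.755 in CON VEH hearts. Of 7 fibroblast markers 0 passed, at 297 to 505 in CON STZ and 309 to 372 in CON VEH hearts, and of 6 macrophage markers 0, at 16.6 to 30.5 and 20.2 to 22.6 in the same groups. Of 4 atrial markers 1 passed, Nppa, with 2.36 ± 0.43 (adjusted p = 0.00293), and the summed level was 83.1 to 361.3 in CON STZ and 34.8 to 47.3 in CON VEH hearts. Nppa passed in mG4H hearts too, with 2.00 (adjusted p = 0.0494). Over the 4 atrial markers the median log2 change was 0.074 in CON and -1.02 in mG4H hearts, so Nppa did not stand for the list. Of 6 endothelial, 4 smooth muscle, 3 erythroid and 5 skeletal muscle markers 0 passed in CON hearts, and Myh1 and Myh4 were above background on 0 arrays. Erythroid sums spread most within a group, at 31.1 to 1017 in mG4H STZ and 382 to 573 in mG4H VEH hearts. The part of these cell types in the members' changes was not tested.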

How the data were processed

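Per the labels' protocols, Cy3-labelled RNA of each ventricle was hybridised to a 1-colour Agilent array, and Agilent Feature Extraction and limma are named in the submitters' processing notes. The deposited files hold spot intensities. Per the file headers (version 10.5.1.1) the processed signal is an intensity from which background and a spatial trend were removed on each array, with no scaling across arrays. Probe positions are on mm9.

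The log2 processed signal minus the log2 of the array's 75th percentile over 59305 gene spots was used. Outlier spots were left out and repeated spots averaged. Of 55681 probes 39766 were well above background on at least 6 of 24 arrays, and the brightest probe by mean stood for each of 28235 gene names. Of the members' values, 3 were missing.

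All arrays were fitted together in limma 3.58.1 (R 4.3.3), using 1 mean per group, 5 contrasts, two-sided tests and Benjamini-Hochberg adjustment over all genes at 0.05. Errors are limma's standard errors. The fit was tested on simulated data, where it missed some genes with a true change. A first requirement on the number of genes called was not met and was replaced. Python 3.11.15 with pandas 2.3.3, numpy 2.4.6 and matplotlib 3.10.9 handled the files and figures.

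The members, classes and lists were chosen with earlier results of these data known. Every member is accounted for. Members past the threshold have their values given for the groups compared, as have the 3 smallest p where none passed, and up to 4 genes past the threshold of each other list, with Slc2a4, are named. Ppara, Ppargc1a and the marker genes fall outside this rule and were named after their values were seen. The second probes, the older symbols and the array that stood low were looked at after their values were seen.

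The number of arrays limits the precision. Each array is a separate mouse, per the labels. The alternatives were normexp background correction, quantile and median scaling, other filters, the mean of all probes, slide and replicate blocks, array weights, the compared groups alone, values within slides and leaving out each array. The fits that omit slide 4 were chosen after seeing the data. No sample was left out.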

Additional observations from a re-analysis of the deposited data

Results flagged for a closer look

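In 6 of 136 groups of a member's 6 arrays, 1 array stood far from the rest by Dixon's test at 95%, a rate that chance gives in about 1 of 20 groups. Hadha was high in replicate 2 of mG4H VEH, at 3.82 against 3.58 for the next array, and in replicate 4 of CON VEH, at 3.84 against 3.50. This CON VEH heart is the one that overlapped the CON STZ range. Leaving out this highest CON VEH value raised the Hadha change to 0.61, and Hadha still passed. Hadha did not pass without replicate 1, 2, 3, 5 or 6 of CON VEH. Echs1 was low in replicate 3 of mG4H VEH, at 6.09 against 6.24. Acaa1b was low in replicate 5 of CON VEH, at 1.86 against 2.02. Crot was low in replicate 3 of CON STZ, at 2.00 against 2.14. Abcd2 was low in replicate 3 of CON VEH, at -4.49 against -3.86, and without that heart Abcd2 passed as lower in CON STZ hearts.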

How the results depend on the processing

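The count of 9 members past the threshold for STZ in CON hearts became 0 with median scaling, 5 without slide 4 and 5 to 10 when 1 array was left out. With the other alternatives it lay between 7 and 13, with 1 member lower under quantile normalization (Echs1) and under array weights (Abcd2). The cause of the loss under median scaling was not tested. Over the 9 genes and all tested alternatives, 266 of 324 values kept direction and threshold, 58 lost the threshold and 0 reversed. The alternatives refit the arrays in which the 9 were selected, and those without an mG4H array leave the CON log2 changes as they were. The lack of reversals is therefore no independent check. With the replicate block 7 members passed, Acaa2 and Hsd17b4 being lost. Deviations of same-numbered arrays correlated between -0.6 and 0.664, with a median of 0.0033, and 16 of 36 pairs were over 0.1. These values gave no sign of pairing by number, and whether siblings shared a number is not known. Arrays of different groups on the same slide had a median of 0.299, with 50 of 61 pairs over 0.1. The main fit does not model slide. The count of 0 for STZ in mG4H hearts became 1 with quantile normalization and 0 to 5 when 1 array was left out. The count of 0 for mG4H against CON in VEH hearts became 1 with the compared groups alone. The mitochondrial median for STZ in mG4H hearts was -0.089 within slide 2. The peroxisomal median was -0.18 with median scaling and 0.061 within slide 1 for STZ in mG4H hearts, -0.097 within slide 2 for STZ in CON hearts, and 0.059 within slide 1 for the difference between the STZ effects. For STZ in CON hearts 1117 genes became 75 with median scaling, 2392 with array weights, 642 without slide 4 and 636 to 1640 when 1 array was left out. For STZ in mG4H hearts 75 became 6 with median scaling, 227 with array weights, 0 with the compared groups alone and 17 to 627 when 1 array was left out. For mG4H against CON, 23 genes in VEH hearts became 8 with median scaling, 208 with array weights and 100 with the compared groups alone, and 3 in STZ hearts became 14 with array weights and 0 with normexp background correction. For the difference between the STZ effects 0 genes became 6 with array weights.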
